A study of Homo sapiens with 4 samples.

Results

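Intestinal lineage transcription factors were followed in LoVo cells labelled MET+ and MET-KO. The set held 8 genes, *HNF4A*, *HNF4G*, *CDX1*, *CDX2*, *GATA4*, *GATA6*, *FOXA1* and *FOXA2*, taken by symbol from the 58552 annotated gene rows of the count files. The rule itself uses no measured value, but the genes were chosen with earlier results of these data known. LoVo is a line from a colorectal adenocarcinoma whose uncleaved MET receptor signals without ligand. The MET+ group was 2 libraries of cells labelled as GFP controls of WT genotype, and the MET-KO group was 2 libraries of cells in which *MET* was targeted with CRISPR/Cas9, all grown in the same serum-containing medium. Both groups were labelled as biological replicates, single MET-KO clones were picked after selection, and whether a common clone gave both MET-KO libraries is not given in the sources used here, so p-values measure the spread between these libraries only. RNA was sequenced near the poly(A) tail (QuantSeq 3'), which gives about 1 read position per transcript, so longer transcripts gain no extra counts.

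These factors act in a cascade in gut epithelium. FOXA proteins are forkhead factors that can open closed chromatin in the early endoderm, GATA factors are zinc finger proteins that pattern the stomach and small intestine, CDX homeodomain proteins give the hindgut its intestinal identity, and HNF4 nuclear receptors drive genes of absorptive enterocytes. In the adult colon CDX2 and HNF4A are the best known of the set, and GATA4 is normally confined to the proximal gut.

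Library totals ranged from 8429142 to 10286552 counts, and 3 counts, the limit used for a count of 0, correspond to 0.276 to 0.362 CPM (counts per 1000000 of a library size scaled by TMM). These limits cover counting error only, since copies made by PCR were not separated. The replicates of a group correlated more closely (Pearson r of 0.985 and 0.990 over log2 CPM of 13801 genes) than libraries of different groups (0.827 to 0.832). *MET* had 337 and 335 CPM in MET+ libraries and 84.3 and 88.7 CPM in MET-KO libraries. Where the edit lies in *MET* was not compared with these 3' reads, so this level does not test for the edit. The groups also differed away from *MET*, with 57 and 45 counts on chromosome Y genes in the MET+ libraries against 7200 and 7330 in the MET-KO libraries, and chromosome 14 was shifted down (median log2 fold change -0.51 over 479 tested genes) while chromosome 7, which carries *MET*, was shifted up (0.50 over 673 tested genes). These differences go with the groups, so the loss of MET and any other difference between the LoVo lines behind the groups cannot be told apart. The part of such background differences in the results below was not tested.

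Of the colon epithelium markers, 12 in all, EPCAM, CDH1, KRT8, KRT18 and KRT19 were abundant in every library, but 6 had at most 3 counts in each MET-KO library, CEACAM5, CDH17, GPA33, PHGR1, LGALS4 and VIL1. The MET-KO libraries are therefore called by their label, without a cell type. In this list 10 genes were called lower and 1 higher by the test described below. Over all tested genes the shares were 26.9% lower and 27.2% higher. The 6 genes with at most 3 counts passed the filter on low counts through MET+ libraries alone, where a difference is bound to be called. *KRT20*, the gene called higher, likewise passed through MET-KO libraries alone. These counts therefore show no direction of the list. Its summed level went from 9661 and 9694 CPM to 8162 and 7201 CPM. Of 8 squamous markers 5 were called higher and 1 lower, to be read beside the same shares. Among the higher was the keratin gene *KRT13* (MET+ 1.57 and 1.74 CPM, MET-KO 83.7 and 75.8 CPM). The summed squamous level, carried mostly by *SFN*, was 1070 and 1376 CPM against 711 and 496 CPM, and the defining marker *TP63* had at most 1 count in any library. Of 12 stomach markers 3 were tested and called lower. Of these, *TFF1* and *CTSE* had 0 counts in both MET-KO libraries and passed the filter through MET+ libraries alone. The summed stomach levels were 30.6 and 27.4 CPM against 1.76 and 2.85 CPM. Mesenchymal markers, 8 genes, summed to 28.8 and 33.3 CPM against 45.6 and 40.0 CPM, a sum that covers opposite changes. *ZEB1*, *COL3A1* and *ACTA2* rose (log2 fold changes 2.76, 2.22 and 1.55) and *VIM* fell from 15.3 and 20.7 CPM to 0.391 and 0.460 CPM, with *COL1A2* and *TWIST1* at 0 counts. The liver, immune and endothelial lists, each summed on its own, reached at most 1.64 CPM in any library, with *ALB*, *AFP* and *PTPRC* at 0 counts. In such bulk RNA, fewer cells of a type and less RNA per cell cannot be told apart, and the part of these marker changes in the results below was not tested.

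*FOXA1*, *FOXA2* and *HNF4A* fell steeply in MET-KO cells, *CDX2* and *GATA6* rose about 2-fold, *HNF4G* was low in MET+ libraries and at 0 counts in MET-KO libraries, and *CDX1* and *GATA4* had 0 counts in all 4 libraries. Counts were available for 6 of the 8 genes, and 5 of the 8 passed the filter on low counts and could be tested with edgeR's quasi-likelihood test across 13801 genes. At an adjusted p of 0.05, 2 of them were called higher and 3 lower, where 27.2% of all tested genes were called higher and 26.9% lower (54.1% in either direction). *FOXA1*, among the 3 lower, passed the filter through MET+ libraries alone, so its call adds no support. Groups that did not overlap were as common as 75.6% of all tested genes, so the separation of the 5 factors is not by itself particular to them. The sizes of the 3 falls were less common. Among the log2 fold changes of all tested genes, *FOXA2*, *FOXA1* and *HNF4A* stood at percentiles 1.15, 1.33 and 2.08. *CDX2* and *GATA6* stood at percentiles 85.4 and 84.2, with log2 fold changes of 1.04 and 0.97. Calls with a change of 1 or more on the log2 scale, in either direction, made up 24.3% of all tested genes. The sizes of these 2 rises were therefore not unusual in this comparison. The median log2 fold change of all tested genes was 0.01.

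**Figure D1:**
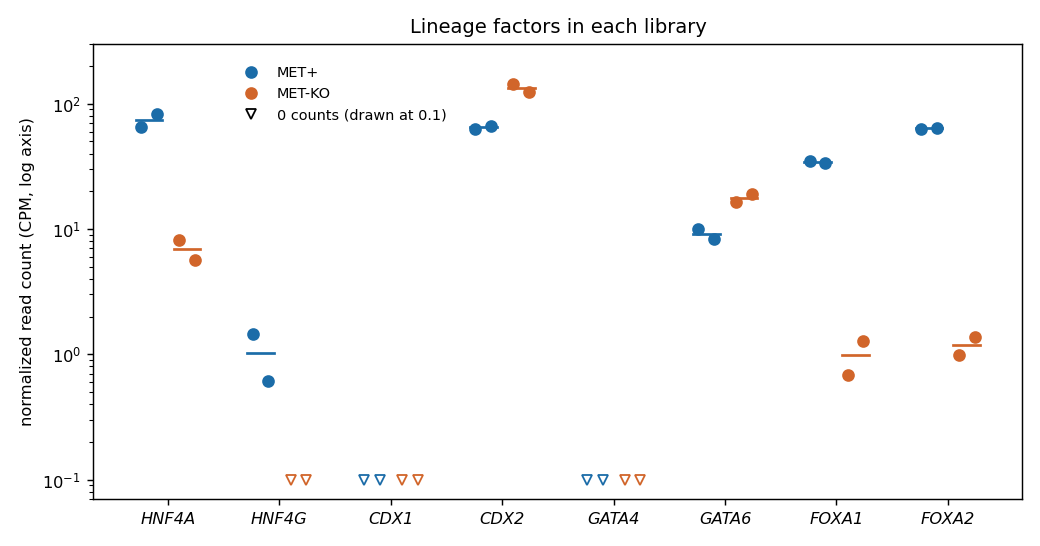
Normalized read count (CPM, log axis) of the 8 lineage factors in each library, with blue for MET+, orange for MET-KO and a line at the mean of each group; open triangles at 0.1 mark libraries with 0 counts. *FOXA1* and *FOXA2* lie between 33.4 and 64.3 CPM in MET+ and at or below 1.38 CPM in MET-KO libraries, while both MET-KO points of *CDX2* and *GATA6* lie above both MET+ points.

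The forkhead pair changed most. FOXA1 and FOXA2 are pioneer factors, able to bind their sites in compact chromatin, and in the intestine they are known for goblet and enteroendocrine cells. *FOXA2* (ENSG00000125798, chromosome 20, 22581005 to 22585455, minus strand, GRCh38) was counted 520 and 628 times in MET+ cells and 10 and 15 times in MET-KO cells. Scaled for library size, this was 62.7 and 64.3 CPM against 0.979 and 1.38 CPM, so that the MET-KO mean was 1.86% of the MET+ mean. Its log2 fold change was -5.73 (SE 0.20, 95% interval -6.14 to -5.32, adjusted p = 1.95e-22 by edgeR, quasi-likelihood with Benjamini-Hochberg adjustment). *FOXA1* (ENSG00000129514, chromosome 14, 37589984 to 37596059, minus strand) had 292 and 326 counts in the MET+ and 7 and 14 in the MET-KO libraries, or 35.2 and 33.4 CPM against 0.685 and 1.29 CPM. The log2 fold change of *FOXA1* was -5.09 (SE 0.25, 95% interval -5.60 to -4.58, adjusted p = 2.64e-18 by edgeR, adjusted likewise). MET+ replicates of each gene lay close together, and neither gene reached 0 in MET-KO libraries. Because the MET-KO counts are so low, the exact fold of each gene rests on few reads. *FOXA1* passed the filter through its MET+ libraries alone, where a difference is bound to be called, so its adjusted p adds no support. *FOXA2* was still tested where at least 10 counts were required in every library, with a log2 fold change of -5.69. Chromosome 14 as a whole was lower in MET-KO cells, and the log2 fold change of *FOXA1* less the median of that chromosome was -4.57, at percentile 1.46 of its genes. *FOXA2* lay at percentile 1.08 on chromosome 20, whose median was 0.09.

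The proportion of the pair did not separate from counting error. *FOXA1* gave 36.0% and 34.2% of the reads of both genes in MET+ libraries (exact 95% binomial intervals 32.7% to 39.4% and 31.2% to 37.3%). In MET-KO libraries its share was 41.2% of 17 reads and 48.3% of 29 reads, with intervals of 18.4% to 67.1% and 29.5% to 67.5%. A change in the balance of the pair was therefore not detectable at this depth. The third forkhead A gene, *FOXA3*, was not counted in MET+ cells and had 2 and 3 counts in MET-KO cells, at or under the limit. Summed over FOXA1 to FOXA3, the family fell from 98.0 and 97.8 CPM to 1.86 and 2.94 CPM. Of the 5 annotated genes within 100 kb of *FOXA2*, the lincRNA gene *LINC00261* among them, 0 had a count in any library. Near *FOXA1*, *MIPOL1* at 37.6 kb had 42 and 38 counts in MET+ and 33 and 16 in MET-KO libraries (log2 fold change -0.93, adjusted p = 0.0393 by edgeR, not called by DESeq2), and *TTC6*, which overlaps *FOXA1* on the other strand, had at most 2 counts.

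*HNF4A* (ENSG00000101076, chromosome 20, 44355700 to 44434596, plus strand), the nuclear receptor that activates lipid transport and brush border genes in enterocytes, fell by about an order of magnitude. It had 541 and 804 counts in MET+ and 83 and 61 in MET-KO libraries, or 65.3 and 82.4 CPM against 8.12 and 5.61 CPM. Within each group the replicates of *HNF4A* were less even than those of *FOXA2*, but the groups stayed far apart. The means were 73.8 ± 12.1 CPM and 6.87 ± 1.78 CPM (SD, n = 2 each), so that 9.30% remained. On the log2 scale the fold change was -3.43 (SE 0.16, 95% interval -3.76 to -3.11, adjusted p = 5.75e-19 by edgeR, quasi-likelihood with Benjamini-Hochberg adjustment), at percentile 2.16 of chromosome 20. Of the 13 annotated genes within 100 kb, *FITM2*, *RPL37AP1*, *TTPAL*, *SERINC3* and *PKIG*, 5 in all, had at least 20 counts, and their log2 fold changes ran from -0.23 to 0.49. None of the 5 was called by edgeR or by DESeq2, with 1 under an unadjusted p of 0.05. Nearer by, 0.515 kb away on the other strand, the antisense gene *AL117382.1* had 8 and 6 counts in MET+ and 1 in each MET-KO library, too few to be tested. The antisense gene *HNF4A-AS1* had 0 counts in all libraries.

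*HNF4A* is transcribed from a pair of promoters, an upstream start known as P2 and a downstream start known as P1, the form that prevails in adult liver. Transcripts from both run to the same 3' region, so these counts sum them and cannot say which start was lost. Of the windows around both starts, the upstream one is printed because it holds the only match to the 4 motifs searched, and the downstream one, chr20:44400989-44401288, held 0. A window runs from 250 bases before to 50 bases after a RefSeq transcript start on GRCh38.p14, 5′ to 3′ on the gene's strand, and capitals mark the motif match.
HNF4A upstream start, chr20:44355449-44355748, plus strand: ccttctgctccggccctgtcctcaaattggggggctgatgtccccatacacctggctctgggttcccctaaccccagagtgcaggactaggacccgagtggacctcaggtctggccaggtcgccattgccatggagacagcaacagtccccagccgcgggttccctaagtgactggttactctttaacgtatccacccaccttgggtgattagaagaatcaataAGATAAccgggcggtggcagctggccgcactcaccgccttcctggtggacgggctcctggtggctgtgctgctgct
The window holds 1 match to the GATA motif AGATAA, beginning 26 bases before the start. Over all 35116 RefSeq windows of the same length, searched on both strands, AGATAA was found in 10.3%. The upstream window did not hold the forkhead motif TGTTTAC (3.42% of all windows), the CDX motif CNATAAA (9.73%) or the HNF4 motif CAAAGTCCA (0.384%). A match describes letters and not a bound site.

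*HNF4G* (ENSG00000164749, chromosome 8, 75407914 to 75566843, plus strand), the paralogue that overlaps in function with HNF4A in the intestine, was near the limit of detection. Its counts were 12 and 6 in MET+ cells (exact Poisson intervals 6.20 to 21.0 and 2.20 to 13.1) and 0 in both MET-KO libraries. It did not pass the filter and has no adjusted p of its own here. Set against a limit of 3 counts per MET-KO library, the MET+ mean of *HNF4G* was 3.62-fold higher. This value was 5.08-fold from MET+ replicate 1 alone and 2.16-fold from MET+ replicate 2 alone. It leaves out the counting error of the MET+ libraries, and the interval of MET+ replicate 2 reaches below 3 counts. *HNF4A* supplied 97.8% and 99.3% of the reads of the pair in MET+ libraries, so nearly all HNF4 reads in either group came from *HNF4A*.

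**Figure D2:**
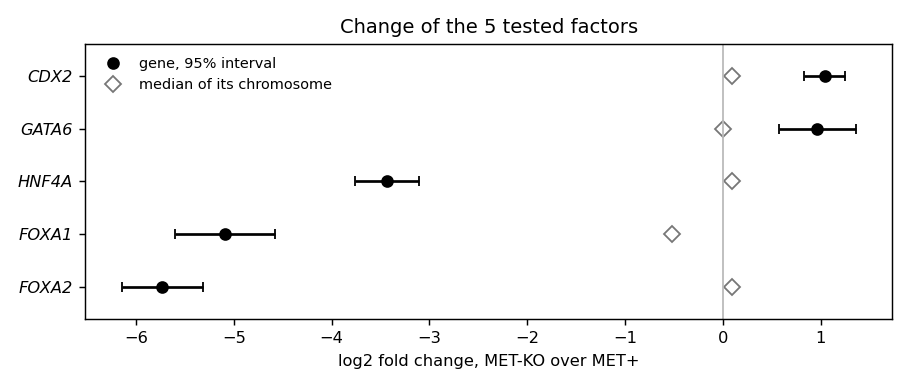
Log2 fold change of MET-KO over MET+ for the 5 tested factors, with 95% intervals from edgeR's quasi-likelihood fit (filled points) and the median of all tested genes on the same chromosome (open diamonds). *CDX2* and *GATA6* sit near 1, *HNF4A* at -3.43, and *FOXA1* and *FOXA2* at -5.09 and -5.73, each away from its chromosome's median.

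*CDX2* (ENSG00000165556, chromosome 13, 27962137 to 27971139, minus strand), the homeodomain factor that maintains intestinal identity, went the other way. It had 525 and 648 counts in MET+ libraries and 1477 and 1338 in MET-KO libraries, or 63.3 and 66.4 CPM against 144.6 and 123 CPM. The groups did not overlap, although the MET-KO replicates were further apart than the MET+ ones. *CDX2* rose from 64.9 ± 2.17 to 133.8 ± 15.3 CPM (SD, n = 2 each), 2.06-fold, with a log2 fold change of 1.04 (SE 0.10, 95% interval 0.83 to 1.25, adjusted p = 1.93e-10 by edgeR, quasi-likelihood with Benjamini-Hochberg adjustment). It stood at percentile 84.2 of 240 tested genes on chromosome 13, whose median was 0.09. *CDX1* (ENSG00000113722, chromosome 5, 150166795 to 150184558), its paralogue of the colonic crypt, had 0 counts in every library, which allows *CDX1* a share of up to 0.571% of the reads of the pair in MET+ replicate 1 and 0.203% in MET-KO replicate 1. *CDX4* had 0 counts as well, so every CDX read counted came from *CDX2*. The pseudogene *RPL7P1*, near *CDX1*, had a log2 fold change of 0.89 and was not called.

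The promoter window of *CDX2* is shown because this gene rose while the forkhead genes fell and because it carries matches to 3 of the motifs searched, again in capitals.
CDX2, chr13:27969266-27969565, minus strand: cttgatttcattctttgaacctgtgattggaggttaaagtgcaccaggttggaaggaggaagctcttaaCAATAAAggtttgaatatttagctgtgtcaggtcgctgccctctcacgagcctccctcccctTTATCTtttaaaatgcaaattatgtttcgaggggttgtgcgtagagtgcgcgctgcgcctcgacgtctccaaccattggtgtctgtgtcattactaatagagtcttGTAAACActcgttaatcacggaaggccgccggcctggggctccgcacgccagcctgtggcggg
From 5′ to 3′ these are CAATAAA, a match to the CDX motif CNATAAA, 181 bases before the start, TTATCT, the reverse complement of the GATA motif, 119 bases before it, and GTAAACA, the reverse complement of the forkhead motif, 13 bases before it. The *FOXA1* window, from another factor called lower, held no match to any of the 4 motifs and is shown for comparison.
FOXA1, chr14:37595200-37595499, minus strand: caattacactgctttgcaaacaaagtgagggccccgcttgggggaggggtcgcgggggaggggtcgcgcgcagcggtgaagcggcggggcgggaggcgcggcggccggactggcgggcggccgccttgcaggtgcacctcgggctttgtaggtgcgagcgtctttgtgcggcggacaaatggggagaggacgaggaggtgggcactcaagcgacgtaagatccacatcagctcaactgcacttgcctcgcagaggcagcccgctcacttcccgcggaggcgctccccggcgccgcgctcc
The *GATA6* window also held 0 matches. Windows were found in that table for 4 of the 8 genes and looked up nowhere else for *FOXA2*, *CDX1*, *GATA4* and *HNF4G*.

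Of the 8 annotated genes within 100 kb of *CDX2*, 3 had at least 20 counts. *PDX1*, the pancreatic and duodenal homeodomain factor 35.9 kb away, had 21 and 25 counts in MET+ and 27 and 29 in MET-KO libraries (log2 fold change 0.06, 95% interval -0.75 to 0.87). *URAD*, an enzyme gene of uric acid breakdown 6.58 kb away on the same strand, rose with *CDX2* from 13 and 24 counts to 65 and 78 counts. Its log2 fold change was 1.72 (SE 0.34, adjusted p = 5.85e-05 by edgeR). The pseudogene *ATP5F1EP2* was not called (0.18). *URAD* lies upstream of the *CDX2* start, while reads of *CDX2* fall near its 3' end. Whether reads of *CDX2* were counted on *URAD* was not tested.

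*GATA6* (ENSG00000141448, chromosome 18, 22169443 to 22202528, plus strand), the zinc finger factor expressed along the whole gut epithelium including the colonic crypt, rose to a similar extent from a lower level. It had 83 and 81 counts in MET+ and 169 and 208 in MET-KO libraries, or 10.0 and 8.30 CPM against 16.5 and 19.1 CPM. The 4 values separated by group, with a gap larger than the distance between replicates. The mean rose from 9.16 ± 1.21 to 17.8 ± 1.82 CPM (SD, n = 2 each), with a log2 fold change of 0.97 (SE 0.19, 95% interval 0.58 to 1.36, adjusted p = 6.97e-05 by edgeR, quasi-likelihood with Benjamini-Hochberg adjustment). The antisense gene *GATA6-AS1*, which overlaps the start of *GATA6*, rose from 28 and 20 counts to 104 and 106 counts (log2 fold change 1.89, standard error 0.29, adjusted p = 1.39e-06 by edgeR). The overlap, 22169443 to 22169878, lies at the starts of both genes, away from the 3' ends near which these reads fall. The strand setting used for counting is not given in the sources used here, and whether reads in the overlap were shared was not tested. *GATA4* (ENSG00000136574, chromosome 8, 11676959 to 11760002), the GATA factor of stomach and proximal small intestine, had 0 counts in all 4 libraries, although its neighbours *FDFT1* (log2 fold change -0.94), *CTSB* (1.23) and *NEIL2* (0.22) were well counted and the lincRNA gene *AC069185.1* had 2, 14, 5 and 7 counts.

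The order of levels therefore differed between the groups. In MET+ cells *HNF4A* (73.8 ± 12.1 CPM), *CDX2* (64.9 ± 2.17) and *FOXA2* (63.5 ± 1.14) were the most abundant and did not differ from each other beyond the spread of *HNF4A* (SD, n = 2 each). *FOXA1* followed at 34.3 ± 1.29 CPM, then *GATA6* and *HNF4G* at 9.16 and 1.03 CPM. In MET-KO cells *CDX2* was highest at 133.8 ± 15.3 CPM, followed by *GATA6* at 17.8 ± 1.82, *HNF4A* at 6.87 ± 1.78, and *FOXA2* and *FOXA1* at 1.18 ± 0.283 and 0.986 ± 0.426 CPM, which did not differ beyond their spread (SD, n = 2 each). Summed over the 8 genes, the level was 238 and 255 CPM in MET+ and 171 and 150 CPM in MET-KO libraries. By the Euclidean distance between centred log2 CPM over the 4 libraries, among 27 tested transcription factors and cofactors, *FOXA1* and *FOXA2* were each other's nearest (distance 0.68). *CDX2* was nearest to *SOX9* (0.21), *GATA6* to *ELF3* (0.38) and *HNF4A* to *KLF5* (0.58). Over so few libraries these distances mostly restate the fold changes between the groups, and shared regulation was not tested.

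Other members of the GATA family changed too. *GATA2* (ENSG00000179348), better known from blood and endothelium, rose from 28.3 and 28.6 CPM to 187 and 195 CPM, with a log2 fold change of 2.74 (SE 0.11, adjusted p = 3.53e-21 by edgeR). *GATA3* (ENSG00000107485), a factor of squamous and mammary epithelium and of T cells, had 0 counts in MET+ and 60 counts in each MET-KO library, at least 17.0-fold higher with 3 counts per library as the limit (adjusted p = 9.63e-10 by edgeR). *GATA3* passed the filter through MET-KO libraries alone, where a difference is bound to be called, so its adjusted p adds no support. *GATA1* and *GATA5* had 0 counts throughout. As a result the GATA family as a whole rose from 38.4 and 36.9 CPM to 209 and 219.5 CPM. *GATA2* made up 73.9% and 77.5% of GATA reads in MET+ and 89.3% and 88.8% in MET-KO libraries. The share of *GATA6* was 26.1% and 22.5% against 7.91% and 8.71%. Its exact 95% binomial intervals spanned 18.3% to 31.3% in MET+ and 6.80% to 9.91% in MET-KO libraries. These intervals cover counting error only and do not measure the spread between libraries. Over genes with at least 20 counts, replicates differed more than by counting, with chi-square per degree of freedom of 5.45 in MET+ and 4.86 in MET-KO. This family share was chosen after the values were seen.

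**Figure D3:**
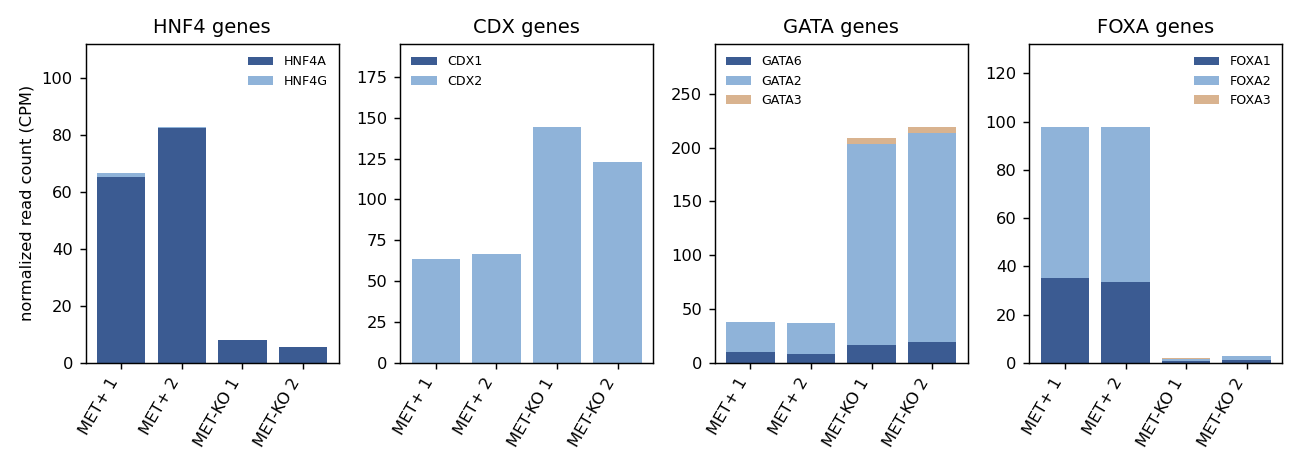
Normalized read count (CPM, linear axis from 0) of each gene family in the 4 libraries, stacked by gene. The GATA bars rise to 209 and 219.5 CPM in MET-KO libraries, nearly all of it *GATA2*, while the FOXA and HNF4 bars drop to a few CPM.

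Beyond these families, 25 other transcription factors of the intestinal epithelium were listed, of which 17 could be tested. Of the 17, 5 were called higher and 9 lower, where 27.2% of all tested genes were called higher and 26.9% lower. DESeq2 called 12 of the 17. *GRHL2* and *PROX1*, among the 9, had at most 3 counts in each MET-KO library and passed the filter through MET+ libraries alone. The median log2 fold change was -0.79. No direction of the list is drawn from these counts. *KLF5*, a Krüppel-like factor of crypt proliferation, fell from 603 and 543 CPM to 77.7 and 66.6 CPM (log2 fold change -2.99), and *PPARG*, a lipid-sensing nuclear receptor of the colon, from 94.5 and 75.5 CPM to 20.7 and 22.1 CPM (-1.99). *GRHL2*, a factor of epithelial junctions, had 145 and 154 counts in MET+ and 0 in both MET-KO libraries, at least 58.4-fold lower. In the opposite direction *PRDM1*, a repressor of the fetal intestine, rose from 18.1 and 14.5 CPM to 67.2 and 76.1 CPM (log2 fold change 2.14), *KLF4*, a factor of postmitotic and goblet cells, from 23.6 and 20.7 CPM to 70.6 and 75.9 CPM (1.73), and *SOX9*, a crypt factor, from 174 and 203 CPM to 379 and 309 CPM (0.87). *VDR*, the vitamin D receptor, had a log2 fold change of -0.08 (95% interval -0.35 to 0.19). Of 6 cofactors 3 were tested, the GATA partner *ZFPM1*, *LMCD1* and *TLE3*. With edgeR's test 0 of the 3 were called, 0 had an unadjusted p under 0.05 and 0 were called by DESeq2.

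**Figure D4:**
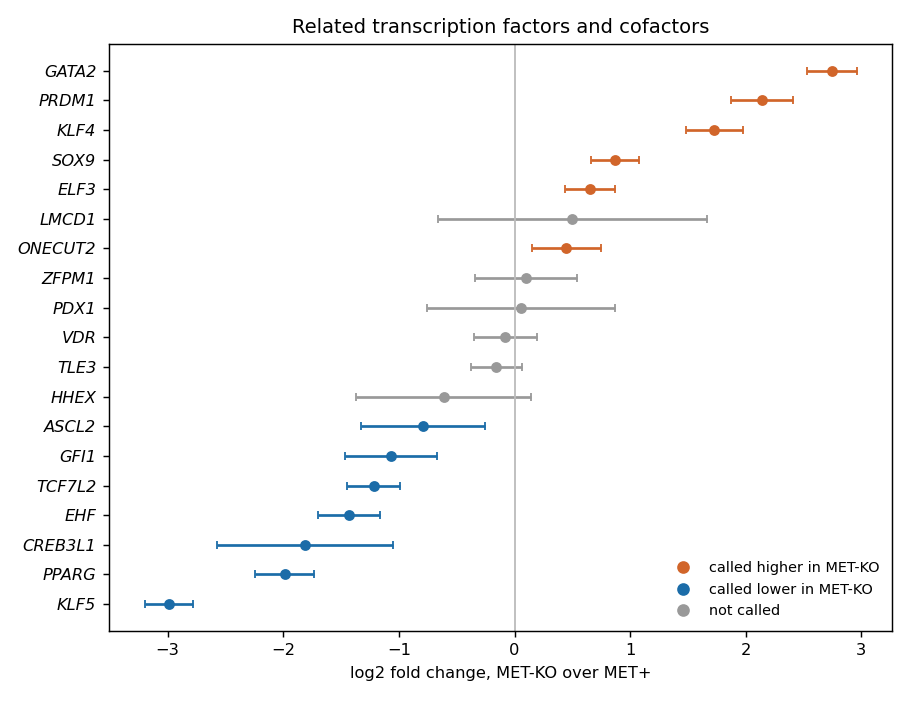
Log2 fold change of MET-KO over MET+ with 95% intervals for 19 tested related factors and cofactors, orange where called higher, blue where called lower and grey where not called. *GATA2* is at the top with 2.74 and *KLF5* at the bottom with -2.99; *GRHL2*, *PROX1* and *GATA3*, which had at most 3 counts in every library of a group, are not drawn.

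Genes known to be driven by these factors were read from lists written from general knowledge but with earlier results of these data known, 44 genes in all, of which 23 had at most 3 counts in every library and 16 could be tested. Of the 16, 3 were called higher and 10 lower, where 27.2% of all tested genes were called higher and 26.9% lower. Of the 10 lower genes, 6 had at most 3 counts in each MET-KO library and passed the filter only through MET+ libraries, where a difference is bound to be called. *MUC2* also passed through MET+ libraries alone, and *KRT20*, among the 3 higher, through MET-KO libraries alone. These counts therefore show no direction of the lists. In the list of genes known to respond to FOXA factors in several tissues, 4 of 8 had at most 3 counts in every library, and the 3 called lower of 4 tested all passed the filter through MET+ libraries alone. *AGR2*, a protein disulfide isomerase of goblet cells, had 369 and 432 counts in MET+ and 0 in MET-KO libraries, at least 155.9-fold lower. The goblet mucin gene *MUC2*, which is in the CDX list as well, fell from 26.7 and 22.7 CPM to 0.685 and 0.276 CPM (log2 fold change -5.66), and the trefoil peptide gene *TFF1* had 31 and 43 counts against 0.

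In the CDX list 8 of 15 genes had at most 3 counts in every library and 7 were tested. Of these, 6 were called lower, but only *DSC2* was well counted in both groups, and the other lower genes passed the filter through MET+ libraries alone, so the list gives no direction to set beside that of *CDX2*. *CDH17*, the liver-intestine cadherin, had 212 and 229 counts in MET+ and 0 in both MET-KO libraries, at least 86.1-fold lower. *CLDN2*, a pore-forming claudin, and *HEPH*, an intestinal iron oxidase, also had 0 counts in MET-KO libraries and were at least 58.3-fold and 42.5-fold lower. The remaining lower genes were *MUC2*, *LGALS4* and *DSC2*, the last a desmosomal cadherin that fell from 231 and 204 CPM to 92.7 and 98.9 CPM. *KRT20*, a keratin of differentiated colonocytes, was the only one higher, with 0 counts in MET+ and 27 and 28 in MET-KO libraries, at least 7.79-fold. *LGALS4*, *DSC2* and *KRT20* were named after their values were seen.

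In the HNF4 list, 9 of 17 genes had at most 3 counts in every library, among them the apolipoprotein genes *APOA4*, *APOB* and *APOC3*, and 4 could be tested. *CLDN15* and *EPS8L3* were called higher, and *ACSL5* and *APOM* had log2 fold changes of -0.03 and 0.62 and were not called. Of all tested genes 27.2% were called higher, so these few genes give no direction of the list. *CLDN15*, a claudin of the small intestine, rose from 4.10 and 7.17 CPM to 21.9 and 23.3 CPM, and *EPS8L3*, a brush border protein gene, from 5.19 and 4.51 CPM to 17.1 and 17.8 CPM. *FABP1*, a fatty acid binding protein in the HNF4 and GATA lists, had 4 and 22 counts in MET+ and 0 in MET-KO libraries and was not tested. Of 8 genes in the GATA list 2 were tested, and both were called lower, where 26.9% of all tested genes were called lower. So few genes give no direction to set beside that of *GATA6* and *GATA2*. *LGR5*, the stem cell receptor, fell from 68.3 and 61.7 CPM to 5.48 and 5.61 CPM (log2 fold change -3.55), and *ADA* had 11.3 and 12.9 CPM against 7.05 and 9.84 CPM (log2 fold change -0.52, adjusted p = 0.0411 by edgeR; DESeq2 called 1 of the 2 genes of this list).

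**Figure D5:**
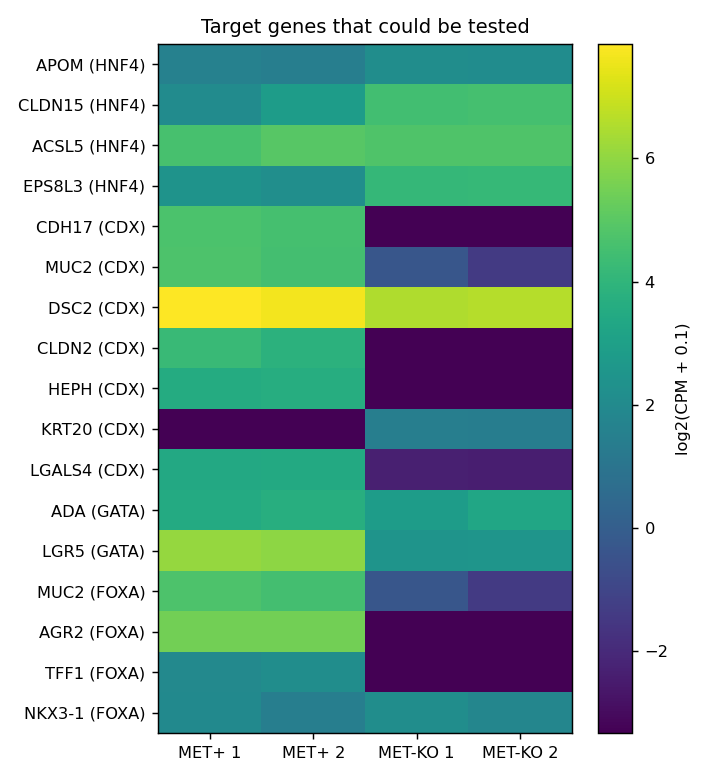
Level of the tested genes of the target lists in each library as log2(CPM + 0.1), with the list of each gene in brackets. The darkest cells mark 0 counts, which *CDH17*, *CLDN2*, *HEPH*, *AGR2* and *TFF1* show in both MET-KO libraries and *KRT20* in both MET+ libraries.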

How the data were processed

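RNA from 4 LoVo cultures, 2 MET+ and 2 MET-KO, was sequenced by QuantSeq 3' (FWD). The authors deposited raw counts of reads per gene, without normalization, for 58825 Ensembl genes and 99 spike-in rows, which hold 0 counts. The submitters' processing notes name STAR 2.5.4a, featureCounts 1.6.2, cutadapt 1.16, DESeq2 1.18.1 and the build GRCh38; the annotation and strand setting are not given in the sources used here. Symbols and positions came from GENCODE 29 (58552 IDs matched).

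Genes were filtered with filterByExpr, scaled by TMM and tested with edgeR 4.0.16 in R 4.3.3 (quasi-likelihood, condition only, two-sided, Benjamini-Hochberg over 13801 genes, threshold 0.05). CPM use TMM-scaled library sizes. Standard errors follow from the fold change and F. An exact permutation test of 2 against 2 libraries cannot go below p = 0.333. Alternatives included DESeq2 1.42.0, other scalings and filters, a replicate block, thinning and leaving out replicates. The test was checked on simulated data. Some listed genes are not reported here and were left out of the list counts. Members and lists were chosen with earlier results of these data known. Named genes were all members, all family paralogues, neighbours within 100 kb with at least 20 counts, and up to 3 called genes per direction and list with non-overlapping groups and a mean log2 CPM of at least 1; further genes were named after their values were seen. Figures used matplotlib 3.10.9.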

Additional observations from a re-analysis of the deposited data

How the results depend on the processing

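The log2 fold changes of the 5 tested factors kept their direction and their side of the threshold under every alternative in which the gene could be tested. They ran from 0.92 to 1.16 for *CDX2*, 0.83 to 1.11 for *GATA6*, -3.72 to -3.18 for *HNF4A*, -5.61 to -4.73 for *FOXA1* and -6.00 to -5.52 for *FOXA2*, ends that came from leaving out each replicate in turn. Under a filter of 10 counts in each library *FOXA1* was not tested. Leaving out replicates gave 2 factors called higher, 3 to 4 called lower, 6289 to 7083 genes called over all tested, 15 to 16 related factors and 12 to 14 target genes. *HNF4G* was the added lower call, when either MET-KO replicate was left out. The remaining MET-KO library then held 0 counts and was assumed to vary like the MET+ libraries. The gene passed the filter through MET+ libraries alone, so no call is drawn from it. Without a filter on low counts *HNF4G* was also called lower (log2 fold change -6.34). Its MET-KO libraries held 0 counts there too, and no call is drawn from that setting either. Scaling by library totals alone moved the median of all tested genes to 0.11 and turned no factor. When calls also needed a change of 1 or more on the log2 scale, 3355 genes were called over all tested and 1 factor was called higher, since *GATA6* lay just under 1. With at least 10 counts in every library 4 target genes were called in place of 13, since genes below that in any library were no longer tested. With the replicate number as a block, 7055 genes were called and the log2 fold change of *HNF4A* was -3.43, and no factor changed its call; across genes the deviations of same-numbered replicates correlated at -0.02, so the numbers did not pair the libraries. DESeq2's Wald test called 5760 genes and the same direction for each of the 5 factors. Low counts in MET-KO libraries limit the precision of the *FOXA1*, *FOXA2* and *HNF4G* values.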
